A study of Sus scrofa with 3 samples.

Results

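The miR-29 family was examined in pig liver through its 3 mature microRNAs (miRNAs), deposited as ssc-miR-29a, ssc-miR-29b and ssc-miR-29c and written below without the species prefix. They were chosen by name and took 4 of the 486 deposited rows and 3 of 411 mature names, because miR-29b is listed under 2 precursors. No other deposited name carried miR-29 with one of these letters, so the opposite arms of the hairpins were not analysed here. The livers came from males at postnatal day 90, and 1 small RNA library was made for each of the Enshi black pig (a domestic breed from China), the Chinese wild boar and the Large White pig (a commercial breed from Europe). The labels speak of 3 male pigs and do not say whether any library pooled animals. With 1 library per breed there is no replicate check and no p-value, a difference between breeds cannot be told apart from one between animals, and every interval is a 95% interval that covers counting error only.

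The miR-29 miRNAs share the seed that sets which messenger RNAs they bind. In human and mouse cells they repress collagen, elastin and fibrillin genes and the DNA methyltransferases DNMT3A and DNMT3B. In mouse liver they are known to decline in stellate cells, the main collagen producers, when fibrosis develops. Their genes lie in neighbouring pairs that are transcribed together. RefSeq's annotation of the Sscrofa11.1 assembly places MIR29A next to MIR29B-1 and MIR29B-2 next to MIR29C, with no other annotated gene boundary between the members of either pair. In human cells miR-29b also carries a signal near its 3′ end that directs it to the nucleus, which miR-29a lacks. Collagen messenger RNA and protein were not measured in this series, so the family's repressor role was not examined.

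The libraries were close in depth, with read counts that summed to 7739853 in the Enshi black, 7837309 in the wild boar and 7350179 in the Large White library. The hepatocyte miRNA miR-122 ranked first in each and is the defining miRNA of this tissue, at 34.2% of reads in the Enshi black, 39.5% in the wild boar and 41.4% in the Large White library. Levels depended on the scaling. Trimmed mean of M-values (TMM) factors were 1.20 for the Enshi black, 1.08 for the wild boar and 0.772 for the Large White library. TMM lowered the log2 ratios of Enshi black over Large White by 0.64 and those of wild boar over Large White by 0.48 relative to library totals. Shares within the family are free of this choice and are given first.

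The 3 breeds differed in the make-up of the family. miR-29a dominated in every library, while miR-29b took 6.33% of the family's reads in the Enshi black, 3.79% in the wild boar and 12.5% in the Large White library. The read counts behind these shares were 16581, 8411 and 22574 for miR-29b in the same order. The exact Clopper-Pearson intervals ran from 6.24 to 6.43% in the Enshi black, from 3.71 to 3.87% in the wild boar and from 12.32 to 12.63% in the Large White library, and none overlapped. miR-29b therefore had its highest share in the Large White liver and its lowest in the wild boar liver. A share counts reads and not molecules, since adaptor ligation works better on some sequences than on others.

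miR-29a held 84.0% of the family's reads in the Enshi black (interval 83.82 to 84.10), 90.0% in the wild boar (89.91 to 90.16) and 78.7% in the Large White library (78.55 to 78.92). Its order was thus the reverse of that of miR-29b. The shares add up to the whole family, so a lower share of one member raises the shares of the others. miR-29c held 9.71% in the Enshi black (9.59 to 9.82), 6.18% in the wild boar (6.08 to 6.28) and 8.79% in the Large White library (8.66 to 8.92). For miR-29c the wild boar library was the low one, and the Enshi black and Large White libraries lay within 0.916 percentage points of each other. The wild boar liver had the family most dominated by miR-29a, with both of the scarcer members at their lowest share.

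**Figure D1:**
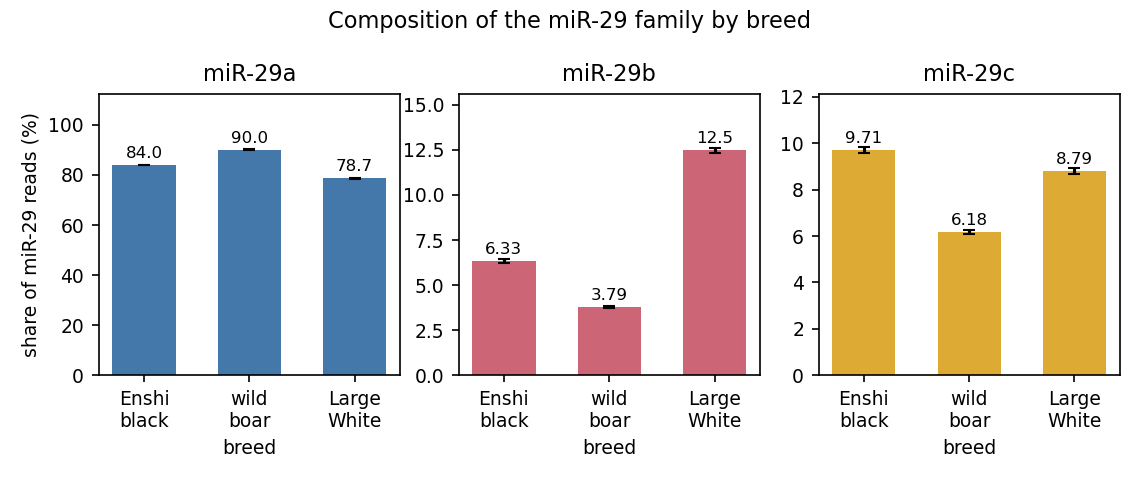
Share of each member in the summed reads of miR-29a, miR-29b and miR-29c (percent, with a separate axis from 0 for each member) in the Enshi black, wild boar and Large White liver library. Bars are shares and whiskers are exact Clopper-Pearson intervals for counting error; miR-29b stands at 6.33% in the Enshi black and 3.79% in the wild boar library, against 12.5% in the Large White library.

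The 2 differences from the Large White library were of unlike form. Between the Enshi black and the Large White library the largest difference was in miR-29b, whose share differed by −6.14 percentage points, while miR-29a differed by 5.22 and miR-29c by 0.916 points. Between the wild boar and the Large White library miR-29b differed by −8.69 points, miR-29c by −2.61 points and miR-29a by 11.3 points. The Enshi black library differed from the wild boar library by 2.55 points in miR-29b, 3.52 points in miR-29c and −6.07 points in miR-29a. In this last pair the scarcer members moved together, and in the first pair they did not.

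Reads of one member per 100 reads of another show the same split. There were 7.54 miR-29b reads per 100 miR-29a reads in the Enshi black, 4.20 in the wild boar and 15.8 in the Large White library. The ratio of miR-29b to miR-29a was 0.476 times as high in the Enshi black as in the Large White library (exact conditional interval 0.466 to 0.486) and 0.265 times as high in the wild boar as in the Large White one (0.259 to 0.272). It was 1.79 times as high in the Enshi black as in the wild boar library (1.75 to 1.84).

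miR-29c stood at 11.6 reads per 100 miR-29a reads in the Enshi black, 6.87 in the wild boar and 11.2 in the Large White library. That ratio was only 1.04 times as high in the Enshi black as in the Large White library (1.01 to 1.06). It was 0.615 times as high in the wild boar as in the Large White library (0.601 to 0.630) and 1.68 times as high in the Enshi black as in the wild boar library (1.65 to 1.72). The wild boar library was therefore the one with little miR-29c for its miR-29a.

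miR-29b against miR-29c grouped the libraries in another way. There were 65.2 miR-29b reads per 100 miR-29c reads in the Enshi black (64.0 to 66.5), 61.2 in the wild boar (59.6 to 62.9) and 142 in the Large White library (139 to 145). The Enshi black and wild boar libraries were close, with a ratio of 1.07 between them (1.03 to 1.10). Against the Large White library the ratio was 0.460 in the Enshi black (0.447 to 0.473) and 0.432 in the wild boar (0.417 to 0.446). The Large White library was the one in which miR-29b outnumbered miR-29c. That order rests on adding the 2 precursor rows of miR-29b, since on the larger row alone miR-29b held 6.67% and miR-29c 9.37% of the Large White family.

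**Figure D2:**
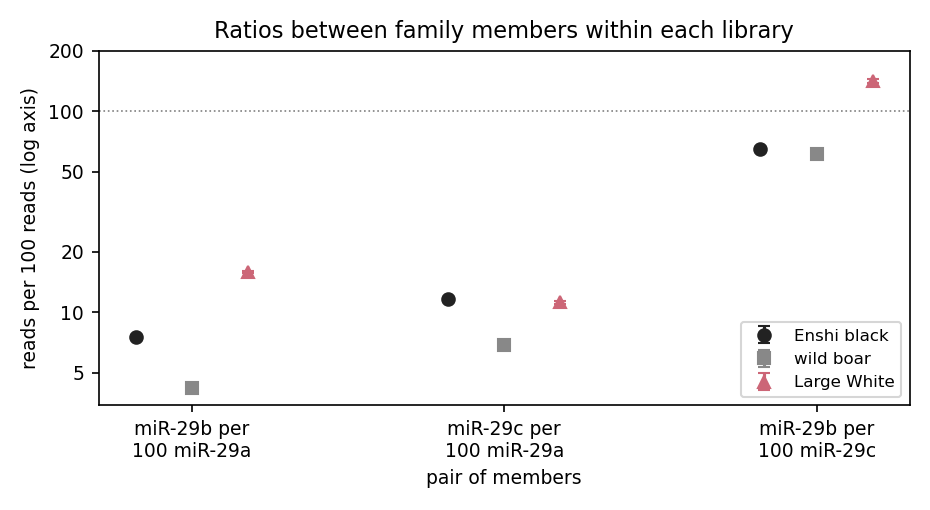
Reads of one family member per 100 reads of another (log axis) within the Enshi black, wild boar and Large White library, with exact 95% intervals for counting error, which are mostly narrower than the symbols. The dotted line marks equal reads; miR-29b stands at 65.2 per 100 miR-29c reads in the Enshi black and 61.2 in the wild boar library, against 142 in the Large White library, where it lies above miR-29c.

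The mature miR-29b is common to both of its hairpins, and their 2 rows held almost the same count in each library. The rows for mir-29b-1 and mir-29b-2 held 8265.33 and 8315.33 reads in the Enshi black, 4192.50 and 4218.50 in the wild boar, and 11250.00 and 11324.00 in the Large White library. The row for mir-29b-2 exceeded that for mir-29b-1 by 50, 26 and 74 reads in the same order, which is 0.302%, 0.309% and 0.328% of the miR-29b reads. Which of the neighbouring gene pairs supplied miR-29b, the one with miR-29a or the one with miR-29c, cannot be told apart from these counts.

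Reads were also divided between members, as the fractions in their counts show. miR-29a had 219848.83 reads in the Enshi black, 200040.50 in the wild boar and 142509.67 in the Large White library. miR-29c had 25420.50, 13738.50 and 15912.33 reads in the same order. Summed over the 4 rows, the family came to 261850 reads in the Enshi black, 222190 in the wild boar and 180996 in the Large White library, each within 0.01 of a whole number. With only the first miR-29b row counted, the sums kept a fraction in the Enshi black and wild boar libraries, at 253534.66 and 217971.50. In the Large White library that sum was also whole, at 169672.00. There the sums cannot tell reads divided between the rows from reads entered in both. The boundaries between members depend on how the authors' counting divided ambiguous reads, whose number the files do not give.

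The family's summed level differed by less than 2-fold between any pair of breeds. It took 3.39% of all miRNA reads in the Enshi black, 2.84% in the wild boar and 2.46% in the Large White library. On the TMM scale, in counts per 1000000 reads (CPM), the summed level was 28187 in the Enshi black, 26355 in the wild boar and 31912 in the Large White library. The Enshi black sum was 0.883 times that of the Large White library on this scale (0.878 to 0.889) and 1.37 times on library totals (1.37 to 1.38). The wild boar sum was 0.826 times that of the Large White library on the TMM scale (0.821 to 0.831) and 1.15 times on library totals (1.14 to 1.16). Which of these breeds had more miR-29 in all therefore turned with the scaling, whereas the Enshi black sum exceeded the wild boar sum on both scales, by 1.07 times after TMM and 1.19 times on totals.

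miR-29a, the abundant member, was the steadiest of the 3 after TMM scaling. Its TMM-scaled level was 23666 CPM in the Enshi black, 23727 in the wild boar and 25127 in the Large White library, and it ranked 8 of 405 miRNAs in each. The Enshi black level was 0.997 times the wild boar level, with an interval from 0.991 that took in 1, so that these neighbours in the order did not differ beyond counting error. The log2 ratio was −0.09 for Enshi black over Large White and −0.08 for wild boar over Large White, and both turned positive on library totals, at 0.55 and 0.40.

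miR-29b varied most among the members. Its level in CPM was 1785 in the Enshi black, 998 in the wild boar and 3980 in the Large White library, where it ranked 49, 67 and 31 among 405 miRNAs. The log2 ratio was −1.16 for Enshi black over Large White, a level 0.448 times as high (0.440 to 0.458), and −2.00 for wild boar over Large White, a level 0.251 times as high (0.244 to 0.257). Both are at least 2-fold with an interval that leaves out 1, the rule used for a call here. Among the 208 miRNAs with a mean of at least 10 CPM, 2.88% were higher and 10.1% lower by that rule in Enshi black over Large White, and 11.5% were higher and 13.5% lower in wild boar over Large White. From the low end, miR-29b ranked 16 of 208 in the first pair and 6 of 208 in the second. On library totals it stayed past 2-fold in wild boar over Large White, at −1.52 and with 9.13% of all miRNAs lower, and not in Enshi black over Large White, at −0.52 and with 2.88% lower. In Enshi black over wild boar its log2 ratio was 0.84, under the 2-fold mark, and 6.25% of miRNAs were higher and 6.25% lower by the rule. On library totals it still fell just short of 2-fold, with 7.21% of miRNAs higher and 3.37% lower.

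miR-29c lay between the others. In CPM it stood at 2736 in the Enshi black, 1630 in the wild boar and 2806 in the Large White library, with ranks of 38, 50 and 42. No pair was past 2-fold, with log2 ratios of −0.04 for Enshi black over Large White, −0.78 for wild boar over Large White and 0.75 for Enshi black over wild boar. On library totals these were 0.60, −0.30 and 0.91, so the direction in the first pair turned with the scaling. miR-29c ranked 41 of 208 from the low end in wild boar over Large White and 21 of 208 from the high end in Enshi black over wild boar.

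**Figure D3:**
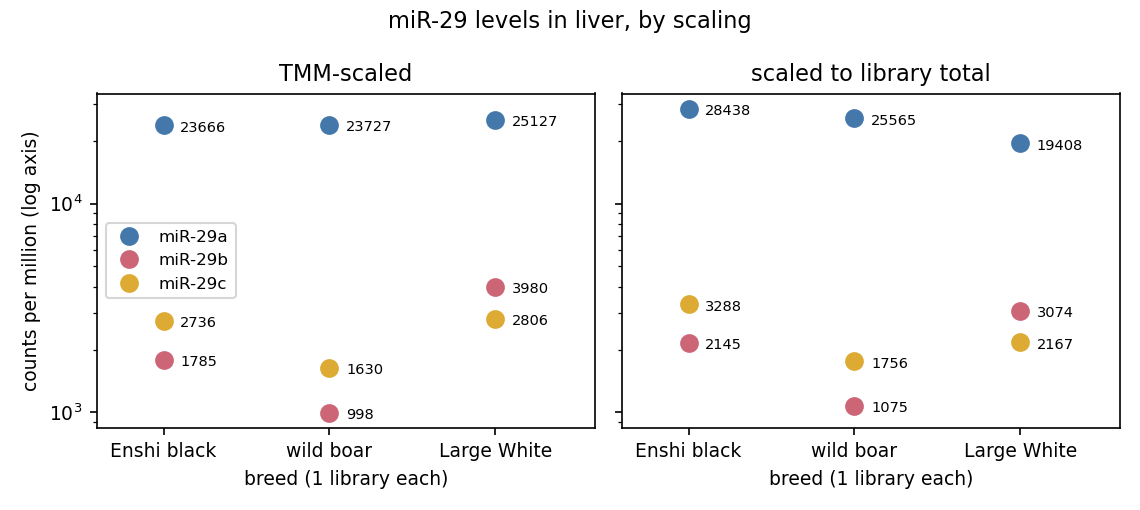
Level of each family member (CPM, log axis) in the Enshi black, wild boar and Large White library, with TMM scaling on the left and scaling to the library total on the right; each point is 1 library. miR-29a is highest in the Large White library after TMM, at 25127 CPM, and lowest there on library totals, at 19408 CPM, while miR-29b is highest there on both scales.

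**Figure D4:**
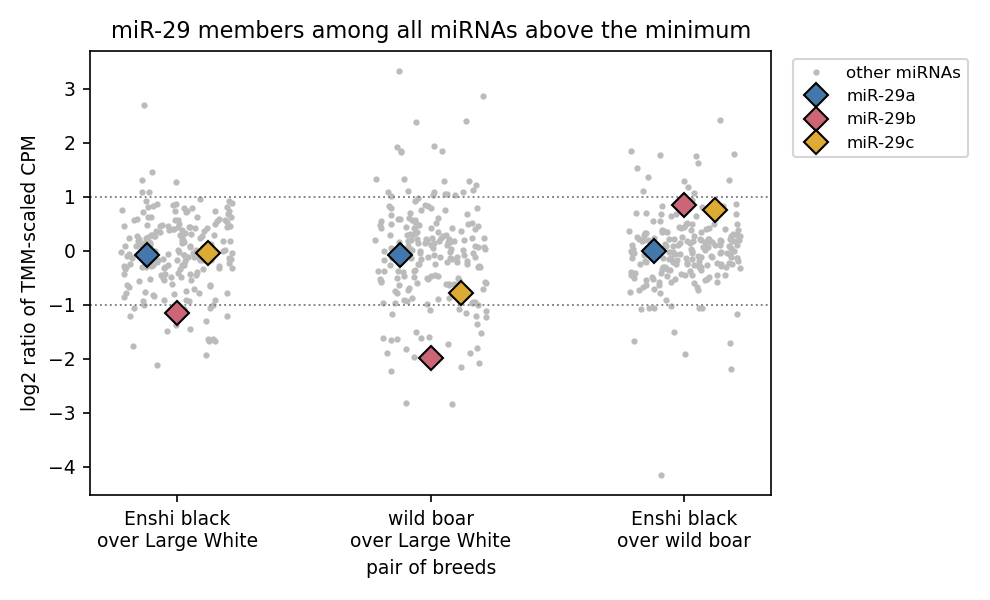
Log2 ratio of TMM-scaled CPM for the 208 miRNAs above the minimum, of which the 3 family members are diamonds and the others grey points spread sideways at random, in each pair of breeds. Dotted lines mark 2-fold; miR-29b lies past them at −1.16 in Enshi black over Large White and at −2.00 in wild boar over Large White, while miR-29a lies within 0.09 of 0 in every pair.

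The miRNAs most like each member were sought among 127 others with a mean of at least 100 CPM, by the distance between log2 levels centred over the 3 libraries. A change of scaling moves all miRNAs of a library together, so it leaves these distances as they are. With only 3 libraries a close match is easily had. Nearest to miR-29b were miR-144, a miRNA of red cell precursors, at a distance of 0.11, miR-7, best known from endocrine and neural cells, at 0.14, and miR-19a of the miR-17-92 cluster at 0.28. In CPM, miR-144 had 665 in the Enshi black, 413 in the wild boar and 1536 in the Large White library. miR-7 had 288, 165 and 580 CPM in the same order, and miR-19a had 968, 603 and 1826 CPM.

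Nearest to miR-29c was miR-151-5p at a distance of 0.00, with levels in CPM of 746 in the Enshi black, 444 in the wild boar and 763 in the Large White library. miR-301 and the opposite arm miR-151-3p followed, both at 0.16. Nearest to miR-29a were miR-30e-3p and miR-423-5p at 0.06 and miR-769-5p at 0.07. In CPM, miR-30e-3p had 347 in the Enshi black, 356 in the wild boar and 390 in the Large White library. None of the 9 neighbours was shared between members. That follows from the distance between the members' own patterns and is not a further result.

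**Figure D5:**
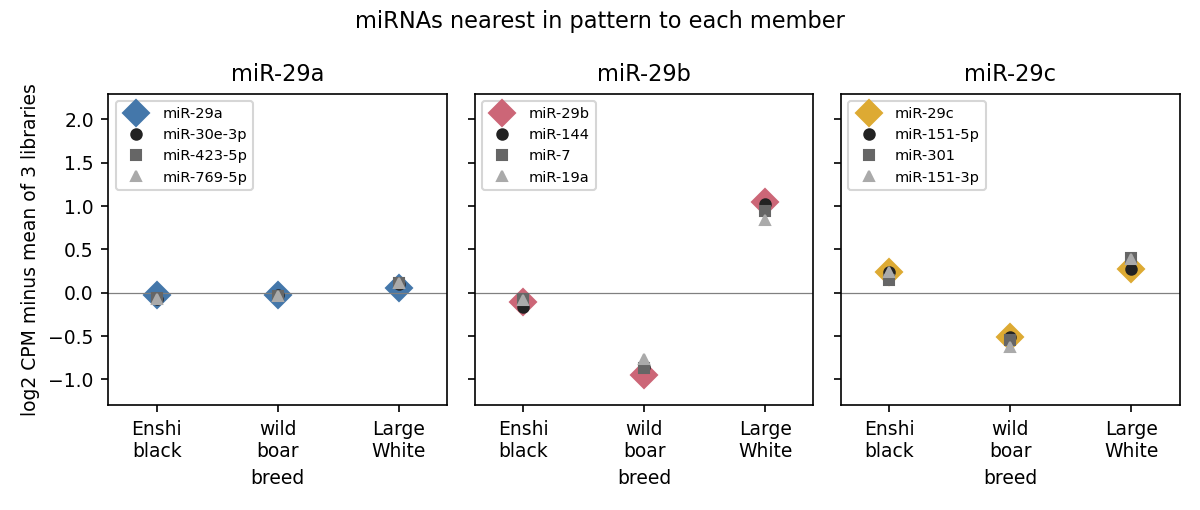
Log2 CPM minus the mean of the 3 libraries, for each family member (diamond) and the 3 miRNAs nearest to it in pattern, in the Enshi black, wild boar and Large White library. miR-29a stays within 0.06 of its mean, miR-29b spans −0.95 in the wild boar to 1.05 in the Large White library, and miR-29c is low in the wild boar library at −0.51.

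In whole liver, fewer cells of a type and less of a miRNA per cell cannot be told apart, so miRNAs that mark cell types were set beside the family. These lists, and those of fibrosis miRNAs below, were drawn up with earlier results of these data known. All markers named in the counts had reads in every library. In CPM, the 4 hepatocyte miRNAs summed to 341596 in the Enshi black, 439702 in the wild boar and 657125 in the Large White library. The 5 miRNAs of stellate cells, fibroblasts and smooth muscle summed to 49324, 40349 and 38412 CPM in the same order, and the 2 arms of the endothelial miR-126 to 16284, 12169 and 10080 CPM. None of these 3 sums had the order of miR-29b on either scale, which was highest in the Large White and lowest in the wild boar library.

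The summed markers of leucocytes did have that order on both scales, and those of red cells after TMM alone, but 1 miRNA carried much of each sum. The 5 leucocyte miRNAs with a row, of 6 listed, summed in CPM to 10877 in the Enshi black, 3651 in the wild boar and 20806 in the Large White library, with miR-142-3p alone at 8054, 2346 and 16873 CPM. After TMM miR-150 broke the order, at 314 CPM in the Enshi black, 91.0 in the wild boar and 278 in the Large White library. By the 2-fold rule, 4 of the 5 were lower in wild boar over Large White after TMM, against 13.5% of all miRNAs. On library totals 3 were lower, against 9.13%. The list median there was −1.61 after TMM, against −0.02 over all miRNAs. In Enshi black over wild boar 4 were higher on both scales, against 6.25% of all miRNAs after TMM and 7.21% on totals. In Enshi black over Large White 1 was lower after TMM, against 10.1%. On library totals the Enshi black level exceeded the Large White level in 4 of the 5. The ratios were 1.06 for miR-142-5p, 1.76 for miR-150, 1.01 for miR-155-5p (0.971 to 1.05) and 1.49 for miR-146a-5p. Most miRNAs were higher in that pair on totals, with a median log2 ratio of 0.60 over all miRNAs above the minimum. The median of the leucocyte list was 0.08, below that background. The 3 red cell miRNAs summed to 4114, 3114 and 5324 CPM after TMM, and to 4944, 3356 and 4112 CPM on library totals, where the Enshi black library was highest. Of these, miR-144 came close to miR-29b. Its genomic neighbour miR-451 held most of the red cell sum after TMM. miR-451 also had the order of miR-29b there, at 3318 CPM in the Enshi black, 2556 in the wild boar and 3641 in the Large White library. Its differences were smaller, with log2 ratios of −0.13 for Enshi black over Large White and −0.51 for wild boar over Large White. miR-486 did not have the order of miR-29b, with 132 CPM in the Enshi black, 145 in the wild boar and 147 in the Large White library after TMM. The 3 striated muscle miRNAs, scarce in all libraries, summed to 77.2, 44.7 and 137 CPM, in the order of miR-29b, as they did on library totals. That sum was mostly miR-1, at 56.6, 21.9 and 103 CPM, while miR-133a-3p had 19.7 CPM in the Enshi black, 20.8 in the wild boar and 28.6 in the Large White library after TMM, and on library totals was 1.07 times as high in the Enshi black as in the Large White library (0.864 to 1.33). The part of any of these cells in the miR-29b difference was not tested.

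Other miRNAs known from liver fibrosis were grouped by their reported role. Of 13 that promote it, all above the minimum, 1 was higher and none lower in Enshi black over Large White, with a median log2 ratio of 0.36 against −0.04 over all 208 miRNAs. The higher one was miR-10b at 1.09, and over all miRNAs 2.88% were higher and 10.1% lower. In wild boar over Large White 1 was higher, miR-222 at 1.01, and 1 was lower, the growth-linked miR-21 at −1.17, with a median of 0.51 against −0.02 over all miRNAs, of which 11.5% were higher and 13.5% lower. None passed 2-fold in Enshi black over wild boar, where the median was 0.08 against −0.01. Of the 13, miR-199a-3p and miR-199b-3p had equal log2 ratios in each pair. These were 0.00 for Enshi black over Large White, −0.11 for wild boar over Large White and 0.11 for Enshi black over wild boar. miR-199a-3p had 63742, 53432 and 38850 reads in the Enshi black, wild boar and Large White library, and miR-199b-3p had 31806, 26655 and 19381. The proportion was almost the same in each library. They may therefore not be separate measurements, though both count among the 13 and in the medians. On library totals 6 of the 13 were higher in Enshi black over Large White and 5 in wild boar over Large White, with 27.4% and 21.6% of all miRNAs higher, and miR-21 was then under 2-fold at −0.69.

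Of 11 miRNAs reported to restrain fibrosis besides miR-29, 10 were above the minimum and miR-200b was not analysed here. In Enshi black over Large White 1 was lower, miR-101, which is known to dampen TGF-β signalling, at −1.67, against 10.1% of all miRNAs, so that the share of the list was near the background. The median was −0.52 against −0.04 over all miRNAs, and on library totals 0.12 against 0.60. In wild boar over Large White 4 were lower, namely miR-101 at −1.61, miR-19a at −1.60, miR-146a-5p at −1.36 and miR-150 at −1.61, and miR-30c-5p was higher at 1.06. Over all miRNAs 13.5% were lower and 11.5% higher. The median of this list was −0.71 there against −0.02 over all miRNAs, and −0.23 against 0.46 on library totals, where miR-146a-5p was under 2-fold at −0.88. In Enshi black over wild boar miR-146a-5p and miR-150, both also leucocyte markers, were higher at 1.30 and 1.79, with 6.25% of all miRNAs higher, and the median was 0.04 against −0.01. After TMM only miR-101 of this list was lower by the rule in both comparisons with the Large White library, as miR-29b was. The other members went both ways. miR-30a-5p and miR-30c-5p had positive log2 ratios in both, at 0.21 and 0.81 over Large White in the Enshi black and 0.08 and 1.06 in the wild boar. On library totals miR-101 stayed past 2-fold in Enshi black over Large White, at −1.04, and miR-29b did not. miR-29a and miR-29c stayed under 2-fold in both comparisons.

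The differences in composition can be set beside those of other families with near-identical members. The measure is the sum of absolute share differences between 2 libraries, divided by 2, in percentage points. Between the Enshi black and the Large White library it was 6.14 for the miR-29 family and 5.71 for the let-7 family. It was 11.1 for the 5p arms of the miR-30 family, 1.44 for the miR-148 and miR-152 family and 1.01 for the miR-181 family. Between the wild boar and the Large White library the figures were 11.3 for miR-29, 14.8 for let-7, 17.2 for miR-30, 5.48 for miR-148 and miR-152 and 2.29 for miR-181. Between the Enshi black and the wild boar library they were 6.07 for miR-29, 11.7 for let-7, 11.7 for miR-30, 4.36 for miR-148 and miR-152 and 2.52 for miR-181. Of these 5 families, miR-30 differed more than miR-29 in all 3 pairs, and let-7 in the pairs with the wild boar library. The log2 ratios of the miR-29 members spanned 1.12 in Enshi black over Large White, against 1.48 in the miR-30 family and 0.75 in let-7. They spanned 1.91 in wild boar over Large White, against 2.29 in miR-30 and 1.36 in let-7, and 0.84 in Enshi black over wild boar, against 1.22 and 0.83. In the same order of pairs, the spans were 0.88, 1.20 and 0.45 in the miR-148 and miR-152 family. For miR-181 they were 0.64, 0.92 and 0.38. The families hold from 3 to 8 members, and neither measure allows for that.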

How the data were processed

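Small RNA of 14 to 40 nucleotides from liver was sequenced as reads of 50 bases, 1 library per breed, per the labels' protocols. Reads had been placed on build Sscrofa 10.2 according to the submitters' processing notes. The aligner and counting tool were not given in the sources used here. Per the file headers, the deposited files hold a read count per mature miRNA and precursor. These are expected counts, with fractions where the authors divided reads among rows, and were summed over precursors and rounded. The deposited RPM values were used for 1 alternative. Rows of 6 names that repeat another name's reads were left out, which left 405 miRNAs, 208 of them with a mean of at least 10 CPM of the library total. TMM factors came from edgeR 4.0.16, size factors from DESeq2 1.42.0 and intervals from scipy 1.17.1. With 1 library per breed no count test was run. A call needs at least 2-fold and an exact conditional-binomial 95% interval that leaves out 1. The calculation of calls was tested on simulated counts with counting error alone and given library sizes. That test covers neither the scaling nor variation between animals. Named miRNAs were the members, the 3 nearest in pattern to each, fibrosis miRNAs past the rule and cell markers. Members, lists and alternatives were chosen with earlier results of these data known. Reads carry no molecular identifiers. Mature sequences and base composition were not used here.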

Additional observations from a re-analysis of the deposited data

How the results depend on the processing

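No paired analysis was possible because each breed has 1 library and the labels carry no replicate numbers. The alternative that corrects for base composition was not run. Family shares kept their values within counting error when libraries were thinned to the smallest total, left unrounded or taken from deposited RPM. These alternatives could hardly move a share, since they draw reads at random, undo rounding or divide all counts of a library by its total. With the larger precursor row alone in place of the sum, miR-29a, miR-29b and miR-29c held 86.70%, 3.28% and 10.02% of the family in the Enshi black, 91.76%, 1.93% and 6.30% in the wild boar, and 83.95%, 6.67% and 9.37% in the Large White library, since this drops a row of miR-29b by construction. The order of the breeds in miR-29b share stayed as reported.

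For miR-29b, Enshi black over Large White dropped under 2-fold on library totals (−0.52) and on totals without miR-122 (−0.69), and lay from −1.16 to −1.02 under the other alternatives. Wild boar over Large White stayed past 2-fold in all 6 alternatives, from −2.00 to −1.52. The sign of miR-29a turned in Enshi black over Large White on totals (0.55), totals without miR-122 (0.38) and TMM of the pair alone (0.05, added after seeing the data), in wild boar over Large White on totals (0.40) and totals without miR-122 (0.35), and in Enshi black over wild boar, where it had been 0.00, on totals (0.15), totals without miR-122 (0.03), DESeq2 size factors (0.02) and the larger precursor row (0.02). The sign of miR-29c turned in Enshi black over Large White on totals (0.60), totals without miR-122 (0.43), DESeq2 size factors (0.04), the larger row (0.01) and TMM of the pair alone (0.10). The cause was not tested beyond the scaling itself, which moves all ratios of a pair together.

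Counts over all miRNAs moved as follows. They are out of 208 miRNAs, except 405 with no minimum and 130 at a minimum of 100 CPM. Counts under those settings therefore do not share a total with the others. In Enshi black over Large White, 6 higher and 21 lower became 57 and 6 on totals, 37 and 8 on totals without miR-122, 13 and 39 with no minimum, 1 and 12 at a minimum of 100 CPM, and 1 and 1 at 4-fold, and 11 were higher with TMM of the pair alone. In wild boar over Large White, 24 higher and 28 lower became 45 and 19 on totals, 43 and 19 on totals without miR-122, 38 and 47 with no minimum, 13 and 18 at 100 CPM, and 4 and 5 at 4-fold. In Enshi black over wild boar, 13 higher and 13 lower became 15 and 7 on totals, 21 and 29 with no minimum, 6 and 8 at 100 CPM, and 1 and 2 at 4-fold. Depth did not limit the members, whose lowest count was 8411 reads.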
